A study of Mus musculus with 12 samples.

Results

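The genes described here encode nuclear-encoded subunits of the mitochondrial respiratory chain and ATP synthase, cytochrome c and the tissue-type isoforms of cytochrome c oxidase subunits. They were chosen by name, from 43 symbols, and each was represented by its brightest probe set annotated to that gene alone, a probe set being a group of short oligonucleotides that report 1 transcript. Of the 43 genes, 42 had such a probe set, Cox7b having none, and 41 passed the filter on dim probe sets, Cox7a1 being the exception. They were measured among 11217 genes tested, of 17097 with a probe set of their own. The 12 arrays were hybridized with RNA from murine leukaemia (AML) lines grown in IMDM with fetal bovine serum and interleukin-3, with 4 arrays for each of 3 lines. The Trib1 line expressed Trib1, a pseudokinase known to promote degradation of C/EBPalpha, and the lines TB13 and TB14 expressed Trib1 together with Bcl11a, a zinc finger repressor of transcription. Trib1 was thus shared by all 3 lines, no treatment was given, and the sources used here do not say how the lines were derived, whether each is a clone, or what promoter drove either gene. With 1 Trib1 line and nothing to show separate cultures, the p-values rest on how far arrays of a line differed, a spread that may be technical, and leave out the difference from line to line.

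The respiratory chain passes electrons from NADH, through complex I, and from succinate, through complex II, to coenzyme Q, and on through complex III and cytochrome c to complex IV, which reduces oxygen. Complexes I, III and IV pump protons across the inner mitochondrial membrane, and complex V, the ATP synthase, uses the gradient to make ATP. Most subunits are encoded in the nucleus, and the few encoded in mitochondrial DNA had no probe set annotated to them here. Several complex IV subunits exist as pairs of a widely expressed isoform and one known from heart and skeletal muscle. Acute myeloid leukaemia cells are known to depend on oxidative phosphorylation, and cytochrome c released from mitochondria also triggers the apoptosome.

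The TB13 arrays differed from the others in probe sets for RNA that was added to the samples. The 18 hybridization control probe sets, which detect transcripts added to each sample, had a median log2 difference of -1.11 in TB13 against Trib1 and of 0.00122 in TB14. Over all genes tested the median log2 change in TB13 was -0.39 as deposited, -0.63 with median scaling, 0.025 with quantile scaling, 0.022 with cyclic loess scaling and 0.40 with calibration on these controls, whereas in TB14 it lay between -0.014 and 0.017. Values below are intensities after quantile scaling, log2 changes are of intensity plus a pseudocount of 12.7, and a direction in TB13 is called a rise or fall only where it held under all 5 scalings. In the myeloid list (Ptprc, Spi1, Cebpa, Kit, Mpo, Itgam, Csf1r, Csf2rb, Il3ra and Lyz2) all 10 genes passed the filter, and their summed intensity ran from 6926 to 7024 in Trib1, from 6987 to 7157 in TB13 and from 8723 to 8779 in TB14. In TB14 3 of the 10, Mpo (3.43), Lyz2 (1.505) and Kit (1.03), were called higher and 6 lower, with a median log2 change of -0.35 (limma). Of all genes 23.0% were called higher and 20.8% lower. In TB13 after quantile scaling 3 of the 10 were called higher and 7 lower, with log2 changes from -2.47 to 2.35. There 42.0% of all genes were called higher and 38.3% lower. Of markers of other cells with a probe set, 3 of 4 erythroid and 5 of 5 T cell genes passed the filter. So did 3 of 4 B cell, 3 of 6 mast cell and 2 of 7 fibroblast genes. The erythroid sum ran from 847 to 896 in Trib1, 1862 to 2010.2 in TB13 and 1448 to 1482 in TB14, and the T cell sum from 205 to 213, 288 to 365 and 142 to 149. The mast cell sum was the largest of these, from 6539 to 6585 in Trib1, 6317 to 6688 in TB13 and 6378 to 6465 in TB14. The part of these genes in the results was not tested. In bulk RNA, fewer cells of a kind and less RNA per cell cannot be told apart.

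In TB14 most respiratory chain genes were slightly higher than in Trib1, and 1 gene, Cox6a2, was far lower. Of the 41 members tested 22 rose and 5 fell (limma, Benjamini-Hochberg adjusted p under 0.05), against 23.0% of all genes higher and 20.8% lower. The members' median log2 change was 0.077, that of all genes tested -0.0049. Within a line the median SD of log2 values was 0.025 for members and 0.048 for all genes. Small changes could therefore be called more readily among members, and the part of this in the counts was not tested. The rises were small, the largest being Cycs at 0.58, and Cox6a2 was the only member that passed the test with a change of 1.5-fold or more, as 6.87% of all genes did. Under all 5 scalings 18 members stayed higher and called and 2, Cox5a and Cox6a2, lower and called, where 17.6% and 14.6% of all genes did so. The 18 were Atp5b, Atp5j, Atp5o, Cox7a2, Cyc1, Cycs, Ndufa4, Ndufa5, Ndufb3, Ndufb5, Ndufb8, Ndufs1, Ndufv2, Sdha, Sdhb, Sdhc, Uqcrb and Uqcrc1.

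In TB13 the direction of these genes depended on the scaling, mixed after quantile, cyclic loess and calibration scaling and mostly lower as deposited and with median scaling. After quantile scaling 16 of 41 members were called higher and 19 lower, against 42.0% and 38.3% of all genes, and their median log2 change was -0.020. As deposited 3 were called higher and 35 lower, and with median scaling none was called higher and 40 lower. Under all 5 scalings 12 members fell with a call in each, while 10.4% of all genes did, and none rose with a call in each, while 18.4% did. The 12 were Cox5a, Cox6a1, Cox6c, Cox7a2, Ndufa1, Ndufa2, Ndufa5, Ndufb10, Ndufs8, Sdhc, Uqcrb and Uqcrfs1. Sdhd was the only member past 1.5-fold with a call after quantile scaling, as 25.6% of all genes were.

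**Figure D1:**
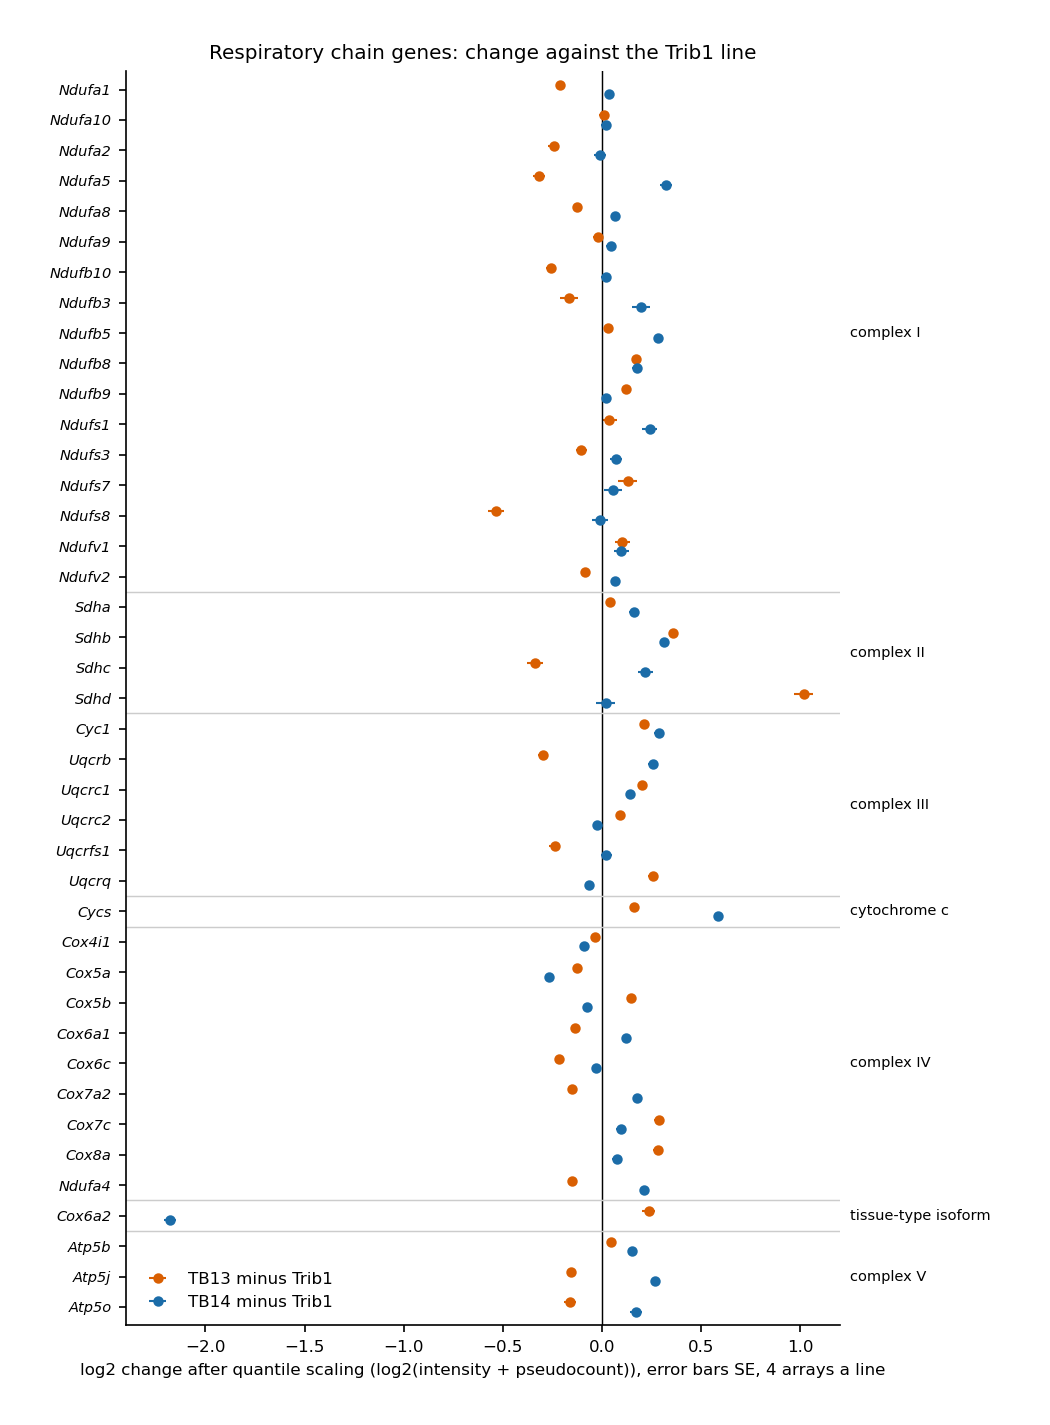
Log2 change of each of the 41 tested genes against the Trib1 line after quantile scaling (x axis, log2 of intensity plus pseudocount; bars are SE, 4 arrays a line), by complex, for TB13 in orange and TB14 in blue. Most TB14 points lie just right of 0, with Cycs at 0.58 and Cox6a2 at -2.18 standing out, while TB13 points lie on both sides.

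**Figure D2:**
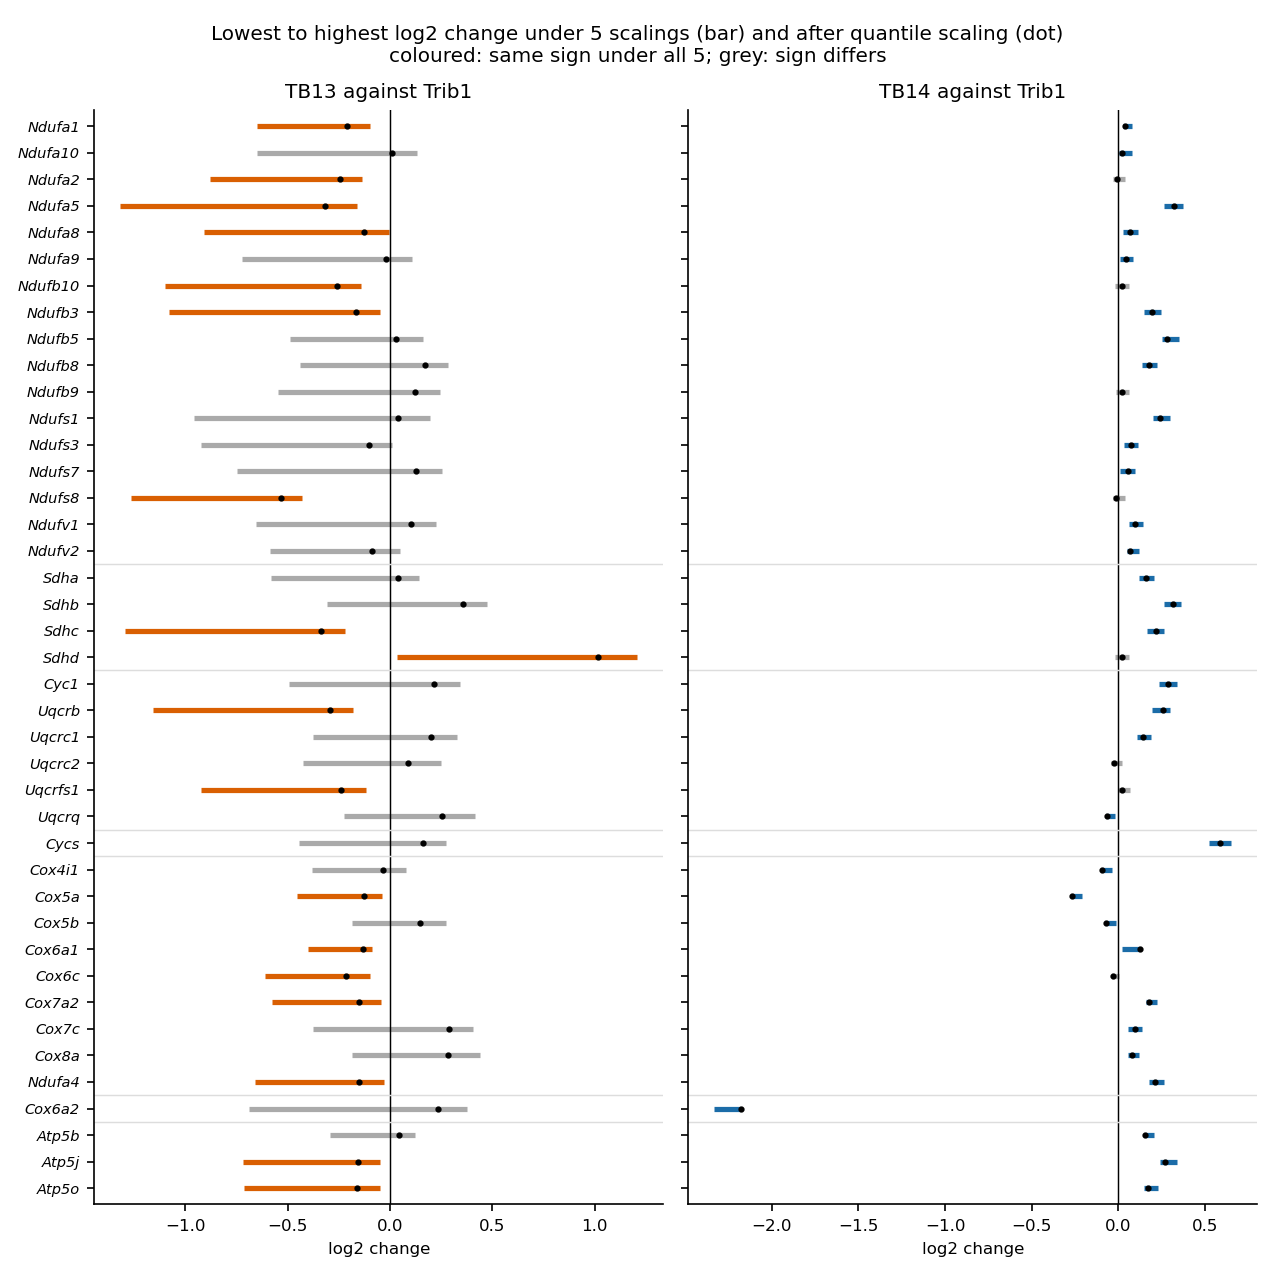
Lowest to highest log2 change of each member under the 5 scalings (bars) and the value after quantile scaling (dots), for TB13 on the left and TB14 on the right, coloured where the sign was the same under all 5. In TB13 the sign was mixed for 23 of 41 members, in TB14 for 8.

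Cox6a2 encodes the heart and muscle isoform of a small subunit of complex IV, and its transcript was clearly present in the Trib1 line. Cox6a2 read 465, 469, 457 and 449 on the Trib1 arrays, 541, 542, 561 and 532 on the TB13 arrays and 92.6, 89.9, 91.9 and 93.1 on the TB14 arrays. All 4 TB14 values lay far below every value of the other lines. The mean was 460.3 ± 8.73 in Trib1 (SD, n = 4), 544 ± 12.2 in TB13 and 91.9 ± 1.37 in TB14. The log2 change in TB14 was -2.18 ± 0.031 (adjusted p = 5.36e-18) with its SE from limma, 4.52-fold lower, and it ranged over -2.33 to -2.18 under the 5 scalings. In TB13 it was 0.23 after quantile scaling but -0.43 as deposited, so no direction is given for that line. The log2 difference of TB14 from TB13 was -2.41 after quantile scaling, and -2.71 to -1.51 under the 5 scalings, with a call under each.

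The widely expressed counterpart, Cox6a1, was bright in all lines. Cox6a1 read 4477, 4414, 4477 and 4477 on the Trib1 arrays, 4065, 4065, 4049.6 and 4081 on the TB13 arrays and 4848, 4836, 4869 and 4869 on the TB14 arrays. The TB14 arrays read highest and the TB13 arrays lowest, without overlap, but the differences were small, at 0.12 ± 0.0092 (adjusted p = 8.03e-09) in TB14 and -0.13 ± 0.0092 (adjusted p = 1.18e-09) in TB13 (limma, log2 change ± SE). The TB14 change was 0.020 at its lowest over the scalings, where it was not called. No other probe set of Cox6a2 was annotated, so its fall rested on 1 probe set, whereas another probe set of Cox6a1 changed by 0.053 in TB14.

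Cox7a1, the muscle isoform of another small complex IV subunit, was not above the filter in any line. Cox7a1 read 14.4, 18.5, 15.6 and 17.2 on the Trib1 arrays, 10.3, 10.7, 10.4 and 9.91 on the TB13 arrays and 17.7, 18.1, 18.6 and 21.2 on the TB14 arrays. These values lay under or near the array medians of 20.8 to 25.9 as deposited, so no change is given. Its widely expressed counterpart Cox7a2 was bright. Cox7a2 read 2362, 2329.6, 2365 and 2382 on the Trib1 arrays, 2099, 2106, 2161 and 2118 on the TB13 arrays and 2657, 2679, 2672 and 2664 on the TB14 arrays. It rose in TB14 by 0.18 ± 0.013 (adjusted p = 5.22e-09) and fell in TB13, at -0.15 ± 0.013 (adjusted p = 1.42e-08) (limma, log2 change ± SE), and the 3 lines did not overlap. Its other probe set changed by 0.19 in TB14 and by 0.046 in TB13, the latter of opposite sign to the one used.

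Because Cox6a2 is known from striated muscle, markers of that tissue were read beside it. Of 11 such markers 4 (Ckm, Acta1, Mb and Des) passed the filter, at means of 24.9 for Mb to 78.2 for Des in Trib1. The sum over all 11 ran from 291 to 300.02 in Trib1, from 432 to 471 in TB13 and from 275 to 286 in TB14. In TB14 none of the 4 passed the test, with log2 changes from -0.11 for Acta1 to -0.0020 for Mb (limma). In TB13 3 of the 4 were called higher after quantile scaling, up to 1.07, where 42.0% of all genes were. Set against TB13, TB14 was called lower in 3 of the 4, down to -1.17, where 41.1% of all genes were. The part of these markers in the Cox6a2 result was not tested. Other isoforms of complex IV subunits outside the 43 genes were dim or behaved differently. Cox8c, the testis isoform of subunit VIII, had a mean of 84.0 in Trib1 and 80.4 in TB14 but 327 in TB13, and rose in TB13 under all 5 scalings, with 1.81 after quantile scaling (limma adjusted p = 2.80e-14). Cox6b2 and Cox7b2 were below the filter, as was Cyct, the testis form of cytochrome c.

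**Figure D3:**
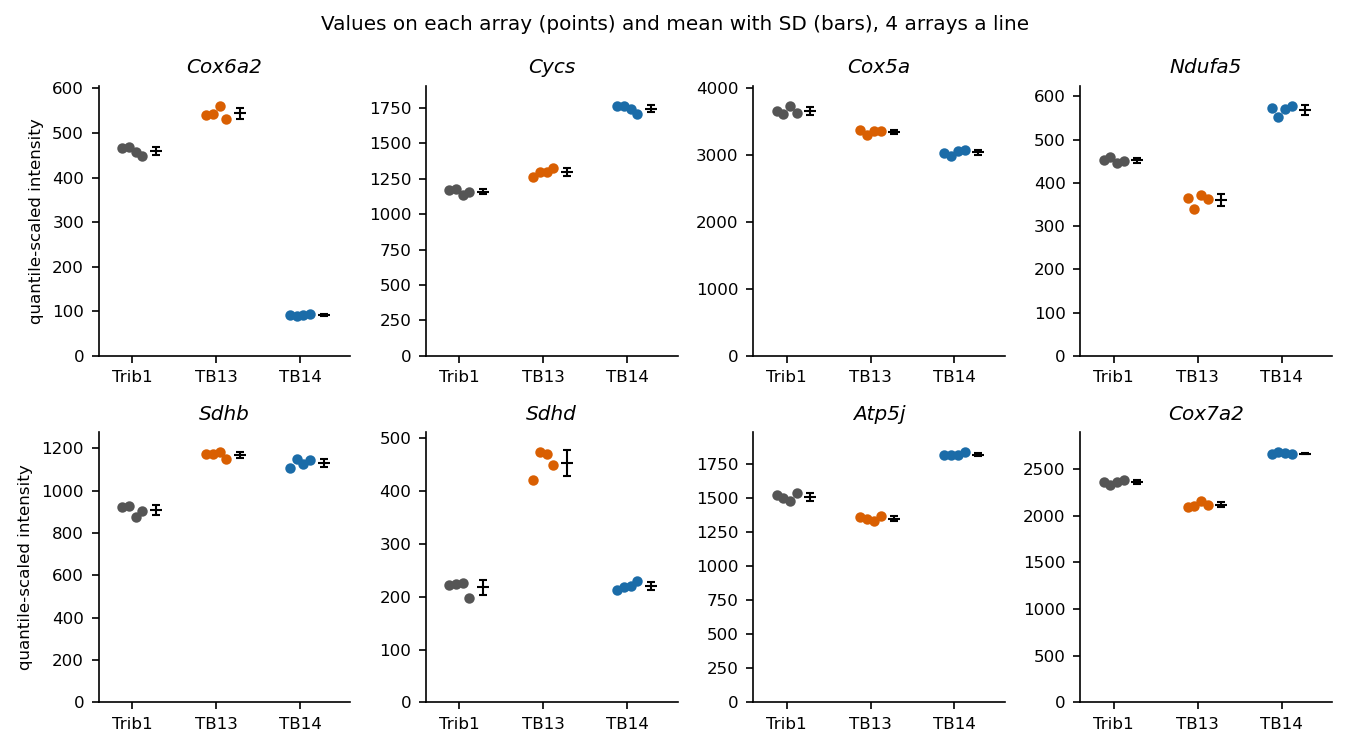
Quantile-scaled intensity (y axis, from 0) of 8 members on every array (points) with the mean and SD of each line (black bars, 4 arrays). Cox6a2 is lowest in TB14, Cycs, Ndufa5, Atp5j and Cox7a2 are highest in TB14, Cox5a is lowest there, and Sdhd is highest in TB13.

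Cytochrome c, encoded by Cycs, carries electrons from complex III to complex IV. Cycs read 1168, 1176, 1134 and 1158 on the Trib1 arrays, 1264, 1297, 1301 and 1328 on the TB13 arrays and 1764, 1764, 1739.5 and 1710.3 on the TB14 arrays. Every TB14 value lay above every value of the other lines. The log2 change in TB14 was 0.58 ± 0.019 (adjusted p = 9.89e-14) (limma, ± SE), or 1.4997-fold, just short of the 1.5-fold limit used above, and 0.52 to 0.65 over the scalings. The gene's other probe sets gave 0.47 and, for one near background, 0.058. In TB13 the change was 0.16 after quantile scaling and -0.18 as deposited, and TB14 exceeded TB13 under all 5 scalings.

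Among the other complex IV subunits, Cox5a fell in both lines. It encodes a subunit on the matrix side of the complex. Cox5a read 3658, 3614, 3734 and 3627 on the Trib1 arrays, 3377, 3302, 3357 and 3357 on the TB13 arrays and 3029, 2992, 3066 and 3070.1 on the TB14 arrays. After quantile scaling the lines did not overlap, with TB14 lowest, but with median scaling TB14 exceeded TB13, at a log2 difference of 0.24. Its log2 change was -0.27 ± 0.013 (adjusted p = 3.60e-11) in TB14 and -0.13 ± 0.013 (adjusted p = 2.04e-07) in TB13 (limma, ± SE), and the other probe sets gave -0.29 and -0.24 in TB14. Cox5a was the only member called lower in both lines.

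Ndufa4, first described as a subunit of complex I and now known to belong to complex IV, went the other way. Ndufa4 read 1691, 1698, 1692 and 1727 on the Trib1 arrays, 1559, 1491, 1526 and 1546 on the TB13 arrays and 1959, 1980.0, 1966 and 1977 on the TB14 arrays. It rose in TB14 by 0.21 and was at -0.15 in TB13 after quantile scaling, where the sign held under all 5 scalings but the call under 3. Cox5b, another nuclear-encoded subunit, differed less. Cox5b read 2819.6, 2848, 2891 and 2877 on the Trib1 arrays, 3296, 3087, 3134 and 3167 on the TB13 arrays and 2689.5, 2709, 2709 and 2758 on the TB14 arrays. Its log2 change was -0.074 in TB14, where the call was lost under 3 of the other scalings, and 0.15 in TB13, of the other sign with median scaling, and its second bright probe set gave -0.040 in TB13.

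Cox7c, a further small subunit, had the largest change of complex IV in TB13. Cox7c read 949, 979.6, 915 and 944 on the Trib1 arrays, 1127, 1179, 1137 and 1186 on the TB13 arrays and 997, 1005, 1009.5 and 1032 on the TB14 arrays. TB13 read highest after quantile scaling, with a log2 change of 0.29, but as deposited this was -0.11. The remaining complex IV members were Cox4i1 (-0.092), Cox6c (-0.031) and Cox8a (0.077) in TB14 (log2 change), of which Cox6c was not called. In TB13 Cox6c fell under all 5 scalings, with -0.22 after quantile scaling. Over the 9 complex IV members other than the muscle isoforms, 5 rose and 3 fell in TB14, to which the fall of Cox6a2 adds 1, where 23.0% of all genes were called higher and 20.8% lower.

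Complex I, the NADH dehydrogenase, gave 7 rises and no fall among 17 members in TB14, with a median log2 change of 0.066, where 23.0% of all genes were called higher and 20.8% lower. Ndufa5, an accessory subunit of its peripheral arm, had the largest. Ndufa5 read 452, 459, 446 and 451 on the Trib1 arrays, 365, 339, 373 and 363 on the TB13 arrays and 573, 552, 570.2 and 578 on the TB14 arrays. The 3 lines did not overlap, TB14 being highest and TB13 lowest. The log2 change was 0.32 ± 0.030 (adjusted p = 1.10e-07) in TB14 and -0.32 ± 0.030 (adjusted p = 5.34e-08) in TB13 (limma, ± SE), and a second probe set gave 0.24 and -0.23.

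Ndufb3, an accessory subunit of the membrane arm, gave the same order of means. Ndufb3 read 601, 607, 614 and 631 on the Trib1 arrays, 500.2, 509, 601 and 575 on the TB13 arrays and 712, 712, 700.4 and 694 on the TB14 arrays. TB14 lay above the rest, while the highest TB13 value just passed the lowest Trib1 value. Its log2 change was 0.20 in TB14 and -0.17 in TB13, where the call was lost under 1 of the 5 scalings. Ndufa8, another accessory subunit, moved less. Ndufa8 read 839.7, 842, 850.2 and 849.8 on the Trib1 arrays, 755, 779.9, 779.5 and 777 on the TB13 arrays and 896, 872, 879.6 and 896 on the TB14 arrays. It changed by 0.066 and -0.13 in TB14 and TB13. Ndufv2, an iron-sulphur subunit of the NADH-oxidizing module, changed little in either line. Ndufv2 read 1656, 1672, 1729 and 1715 on the Trib1 arrays, 1634, 1582, 1619 and 1535 on the TB13 arrays and 1779, 1779, 1772 and 1760.2 on the TB14 arrays. The log2 change was 0.066 in TB14 and -0.088 in TB13, and the sign in TB13 depended on the scaling.

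The other rises of complex I in TB14 were Ndufb5 (0.28), Ndufs1 (0.24) and Ndufb8 (0.17), where Ndufs1 is the largest iron-sulphur subunit and Ndufb5 and Ndufb8 are accessory subunits. The catalytic subunit gene Ndufv1, which binds the flavin, was at 0.098 and did not pass (adjusted p = 0.0537). The other members that did not pass in TB14 were Ndufa1 (0.037), Ndufa2 (-0.0096), Ndufa9 (0.044), Ndufa10 (0.021), Ndufb9 (0.022), Ndufb10 (0.019), Ndufs3 (0.070), Ndufs7 (0.055) and Ndufs8 (-0.012).

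Ndufs8 encodes an iron-sulphur subunit close to the site of coenzyme Q reduction and fell in TB13, by more than any other member after quantile scaling but by less than Ndufa5 and Sdhc as deposited. Ndufs8 read 1204, 1225, 1164 and 1245 on the Trib1 arrays, 931, 823, 792 and 785 on the TB13 arrays and 1189.7, 1221, 1212 and 1173 on the TB14 arrays. The TB13 arrays lay below all others, with a log2 change of -0.53 ± 0.040 (adjusted p = 3.84e-09) (limma, ± SE) and -1.27 to -0.43 over the scalings. Its 3 other probe sets did not share this size of change, with -0.12 for one and values of the other sign, 0.14 and 0.47, for the rest. Further complex I falls in TB13 that held under all 5 scalings were Ndufa1 (-0.21), Ndufa2 (-0.24) and Ndufb10 (-0.26) after quantile scaling, beside Ndufa5.

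Complex II, the succinate dehydrogenase, rose in 3 of 4 members in TB14, where 23.0% of all genes did. Sdhb, its iron-sulphur subunit, had the largest rise. Sdhb read 925, 930.2, 878 and 905 on the Trib1 arrays, 1174, 1172, 1181 and 1148 on the TB13 arrays and 1108, 1151, 1126 and 1144 on the TB14 arrays. Every TB14 value exceeded every Trib1 value, and the log2 change was 0.31 ± 0.021 (adjusted p = 1.72e-09) (limma, ± SE). In TB13 it was 0.36 after quantile scaling and -0.045 as deposited. Sdha, the flavoprotein, rose by 0.16 in TB14. Sdhc and Sdhd encode the membrane anchors. Sdhc read 590.4, 573, 581 and 596 on the Trib1 arrays, 450.5, 484, 495 and 417 on the TB13 arrays and 689.6, 678, 678 and 686 on the TB14 arrays. Sdhc rose in TB14 by 0.22 and fell in TB13, at -0.34, under all 5 scalings.

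The other anchor gene went the opposite way in TB13. Sdhd read 222, 224, 226 and 197 on the Trib1 arrays, 419.6, 472, 469.7 and 448 on the TB13 arrays and 212, 219, 220.3 and 229 on the TB14 arrays. The TB13 values were the highest after quantile scaling, while Trib1 and TB14 overlapped. The log2 change in TB13 was 1.02 ± 0.047 (adjusted p = 9.76e-12) (limma, ± SE), positive under all 5 scalings but only 0.036 with median scaling, where it was not called. It rested on 1 probe set, whose name marks it as able to match other transcripts. In TB14 Sdhd was at 0.019 and did not pass (limma adjusted p = 0.814).

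In complex III, which passes electrons from coenzyme Q to cytochrome c, 3 of 6 members rose in TB14 and 1 fell, against 23.0% and 20.8% of all genes. Cyc1, the cytochrome c1 subunit, had the largest rise. Cyc1 read 841, 864, 874 and 847 on the Trib1 arrays, 1006, 1011, 945 and 1019 on the TB13 arrays and 1029.9, 1046, 1063 and 1050.2 on the TB14 arrays. Both Bcl11a lines read above Trib1 after quantile scaling, but TB13 did so only under that and 2 other scalings, at 0.21 after quantile scaling and -0.23 as deposited. The log2 change in TB14 was 0.29 ± 0.024 (adjusted p = 2.68e-08) (limma, ± SE).

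Uqcrb, a small subunit near the site that binds coenzyme Q, divided the lines. Uqcrb read 756, 759, 732 and 759.5 on the Trib1 arrays, 602, 599.6, 642 and 596 on the TB13 arrays and 922, 892, 905 and 882 on the TB14 arrays. It rose in TB14 by 0.26 and fell in TB13, at -0.30, without overlap between lines. Uqcrq, another small subunit, gave the reverse order. Uqcrq read 1566, 1585, 1544 and 1621 on the Trib1 arrays, 1956, 1830.5, 1924 and 1839 on the TB13 arrays and 1509.7, 1537, 1503 and 1485 on the TB14 arrays. Its changes were -0.065 in TB14, where the call was lost under 3 of the other scalings, and 0.26 in TB13, of the other sign with median scaling. The core subunit gene Uqcrc1 rose by 0.14 in TB14, while Uqcrc2 and the Rieske iron-sulphur gene Uqcrfs1 did not pass there, at -0.024 and 0.022. Uqcrfs1 fell in TB13 under all 5 scalings, with -0.24 after quantile scaling.

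All 3 members of complex V rose in TB14, where 23.0% of all genes did. Atp5j encodes coupling factor F6 of the peripheral stalk. Atp5j read 1523, 1498, 1475 and 1535 on the Trib1 arrays, 1359.8, 1344, 1330.4 and 1365 on the TB13 arrays and 1813, 1815, 1815 and 1834 on the TB14 arrays. The TB14 arrays lay above and the TB13 arrays below the Trib1 arrays. The log2 change was 0.27 ± 0.016 (adjusted p = 3.32e-10) in TB14 and -0.16 ± 0.016 (adjusted p = 1.22e-07) in TB13 (limma, ± SE). Atp5o, the oligomycin sensitivity-conferring subunit of the same stalk, gave the same order. Atp5o read 1533, 1529, 1500.0 and 1529.8 on the Trib1 arrays, 1408, 1283, 1312 and 1442 on the TB13 arrays and 1733, 1739.5, 1689 and 1706 on the TB14 arrays. Its changes were 0.17 and -0.16, and in TB13 neither gene kept its call under all 5 scalings. Atp5b, the catalytic beta subunit, rose by 0.15 in TB14.

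The lines carrying Bcl11a differed from each other in many of these genes. After quantile scaling 14 of the 41 members passed in both lines with opposite signs, 11 being lower in TB13 and higher in TB14 and 3 the reverse, whereas 8 were called higher and 1 lower in both, the 2 comparisons sharing the Trib1 arrays. Over all genes 7.90% were lower in TB13 and higher in TB14, 3.67% the reverse, 9.86% higher in both and 14.3% lower in both. Set directly against TB13, TB14 was higher in 25 members and lower in 11, against 39.0% and 41.1% of all genes (limma, Benjamini-Hochberg adjusted p under 0.05), 80.1% in either direction. Under all 5 scalings 19 members, of 41, were higher in TB14 with a call in each, where 11.7% of all genes were, and 1, Cox6a2, was lower, where 18.4% were. The largest of these differences after quantile scaling were Ndufa5 (0.64), Sdhc (0.56), Uqcrb (0.55) and Ndufs8 (0.52) and, in the other direction, Cox6a2 (-2.41). With the mean of all its probe sets the Ndufs8 difference was -0.027. Over all genes the median log2 difference of TB14 from TB13 was itself 0.41 as deposited and 0.67 with median scaling. The shares of all genes were not matched for intensity, and the part of brightness in these counts was not tested.

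Taking TB13 and TB14 with equal weight against Trib1, the contrast named by the series, gave 17 members higher and 9 lower, where 38.6% and 31.6% of all genes were (limma, Benjamini-Hochberg adjusted p under 0.05). The members' median log2 change was 0.014, that of all genes 0.033. With each line's mean taken as 1 sample no member passed (limma), where 115 of all genes did and 467 had an unadjusted p under 0.05, so these calls rest on the spread between arrays. As deposited the split was 5 higher and 28 lower, with a members' median log2 change of -0.13, that of all genes being -0.15.

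Where members had further probe sets, most had the sign of the one used. Of 23 other probe sets past the filter, from 19 genes, 19 had the sign of the one used in TB14 and 16 in TB13. Those of opposite sign in TB14 were the dim second probe sets of Ndufa10, Ndufb8 and 1 other of Uqcrq, and the second bright one of Uqcrc2, at 0.016.

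Genes around the respiratory chain were read from lists that held the remaining subunits and the machinery that builds and feeds the complexes. In TB14 most of the remaining subunits rose as the members did, with 9 of 15 further complex I subunits called higher and 2 lower, and 12 of 15 further complex V genes higher and 1 lower (limma, Benjamini-Hochberg adjusted p under 0.05). Ndufv3, a small subunit of complex I, was the largest rise of its list at 0.36, and Ndufa6 the largest fall at -0.33. In complex V these were Atp5mpl at 0.31 and Atp5g2, a gene for the membrane ring subunit c, at -0.21. Both tested complex III genes rose, led by Uqcr11 at 0.34. In complex IV, Cox6b1 rose by 0.22, and Cox7a2l, known for joining complexes III and IV into supercomplexes, fell, at -0.40.

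The counts of these lists in TB14 stand against 23.0% of all genes called higher and 20.8% lower. Assembly factors of the complexes gave 16 rises and 3 falls among 37 in TB14, from Ndufaf2, a complex I assembly factor, at 0.49 to Surf1, a complex IV assembly factor, at -0.37. Pyruvate dehydrogenase and citric acid cycle genes gave 8 rises and 2 falls of 15, with Ogdh, of oxoglutarate dehydrogenase, at 0.62 and Idh3g, of isocitrate dehydrogenase, at -0.24. Mitochondrial ribosomal protein genes gave 14 rises and 5 falls of 38, between Mrpl18 at 0.54 and Mrpl23 at -0.29. Protein import genes split into 13 and 6 of 21, with the inner membrane translocase genes Timm17a at 0.32 and Timm44 at -0.28.

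Of genes for mitochondrial DNA upkeep and expression 6 rose and 1 fell of 17 in TB14, led by Polg, the catalytic subunit of the mitochondrial DNA polymerase, at 0.72, while Tfb1m, a methyltransferase of mitochondrial ribosomal RNA, fell at -0.30. Among 11 fatty acid oxidation genes 4 rose and 2 fell, with Etfdh at 0.26 and Hadh, a hydroxyacyl-CoA dehydrogenase, at -0.70, which also fell in TB13 under all 5 scalings, at -1.20 after quantile scaling. Of 10 coenzyme Q synthesis genes only Coq7 passed in TB14, at 0.31, and it fell in TB13 under all 5 scalings, at -0.91. Carriers and porins gave 4 rises and 3 falls of 11, with the aspartate-glutamate carrier genes Slc25a12 at -0.32 and Slc25a13 at 0.22, the latter not called under each scaling.

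Transcription factors and coactivators known to act on respiratory genes gave 4 rises and 1 fall of 10 in TB14, with Creb1 at 0.49 and Sp1 at -0.069. Nrf1 itself was at 0.36 in TB14 (limma adjusted p = 0.00282) and at -0.60 in TB13, where the sign depended on the scaling.

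In TB13 some genes of these lists kept direction and call under all 5 scalings, against 10.4% of all genes lower and 18.4% higher. These shares were not matched for intensity. Lower under all 5 were Surf1 and Cox16 of 37 assembly factors and Ndufa3 and Ndufa6 of 15 further complex I subunits. So were Cox6b1 of 5 complex IV genes, Atp5e and Idh3b of 15 genes each, Tfb2m of 17 and Tomm70a of 21. Of mitochondrial ribosomal protein genes 6 of 38 were lower, and of carriers and porins 4 of 11. Cpt1a, Etfa and Hadh were lower among 11 fatty acid oxidation genes, and Coq7 among 10 coenzyme Q genes. No regulator and no further complex III gene was lower under all 5. After quantile scaling the log2 change was -1.20 for Hadh, -0.91 for Coq7, -0.78 for Mrps5 and -0.77 for Slc25a12, with -0.42 for Ndufa6, -0.25 for Atp5e, -0.21 for Idh3b and -0.19 for Cox6b1 leading their lists. Higher under all 5 were only Cox8c, Cox4i2 and Cox8b, the last pair dim, with means of 22.05 and 20.015 in Trib1. Their means were 35.4 and 25.3 in TB13 and 21.05 and 20.5 in TB14. The filter needed 4 arrays above their median, so the TB13 arrays alone could have brought this pair past it. Their rise in that line is therefore not independent of the filter. Other genes that led a list in TB13 after quantile scaling did not keep sign and call and are given as values only. Positive were Tufm (0.58), Tomm34 (0.55), Atp5mpl (0.55), Slc25a10 (0.48), Mrpl13 (0.44), Ndufaf4 (0.43), Ndufv3 (0.42), Pdha1 (0.35), Creb1 (0.34), Coq8b (0.33), Acads (0.27) and Uqcr10 (0.15), and negative Mterf4 (-0.82), Foxred1 (-0.78), Timm9 (-0.74) and Uqcr11 (-0.074). Genes given beyond the leaders of each list were chosen after their values were seen.

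**Figure D4:**
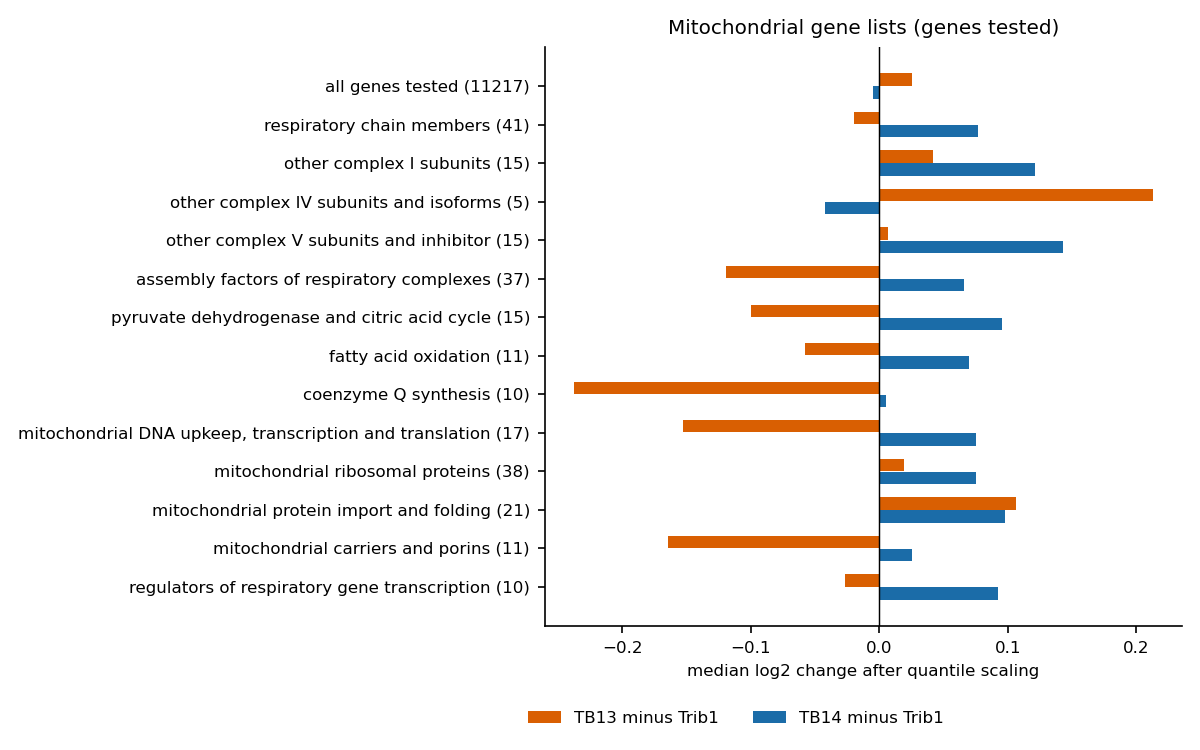
Median log2 change after quantile scaling (x axis) of all genes tested, the 41 respiratory chain members and 12 lists of mitochondrial genes with at least 5 tested genes (number tested in brackets), for TB13 in orange and TB14 in blue. In TB14 the members' median is 0.077 and that of further complex V genes 0.14, while in TB13 the medians lie on both sides of 0.

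Promoter sequences were read for the members that had an entry, because binding sites of NRF1, of ETS factors such as GABP, to whose family PU.1 also belongs, and of YY1 are known features of respiratory gene promoters. The RefSeq table of the GRCm38.p6 build held 33 windows of 31 of the 42 genes, from 250 bases before to 50 after the start of a transcript. The NRF1 letters GCGCANGCG, on either strand, stood in 10 of the 33 windows (30.3%) and in 6.25% of all 32851 windows. The ETS letters CCGGAAG stood in 7 (21.2%, against 8.86%) and the YY1 letters AAGATGGC in 4 (12.1%, against 2.75%). A match is a run of letters and not a measured site. Of the 9 members tested with the NRF1 letters, 7 rose and none fell in TB14, with log2 changes from 0.019 for Sdhd to 0.58 for Cycs, and of 21 tested members with a window without them 11 rose and 2 fell, where 23.0% of all genes were called higher and 20.8% lower. In TB13 after quantile scaling 3 of the 9 were called higher and 5 lower, and of the 21, 8 higher and 10 lower, where 42.0% and 38.3% of all genes were.

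Shown are the 250 bases before the start for Cycs and Cox5a, the largest rise and fall in TB14 among members with an entry, and for Sdhd, the largest positive change in TB13 after quantile scaling, 5′ to 3′ in lower case with matches to the 3 motifs in capitals. Cycs lies on the minus strand at chr6:50566570-50566819, Cox5a on the plus strand at chr9:57520982-57521231 and Sdhd on the minus strand at chr9:50603850-50604099 (GRCm38.p6). Cycs holds 1 NRF1 match, which begins 61 bases before the start, Sdhd 1 NRF1 match 79 bases and 1 ETS match 46 bases before it, and Cox5a none of the 3 motifs.
Cycs: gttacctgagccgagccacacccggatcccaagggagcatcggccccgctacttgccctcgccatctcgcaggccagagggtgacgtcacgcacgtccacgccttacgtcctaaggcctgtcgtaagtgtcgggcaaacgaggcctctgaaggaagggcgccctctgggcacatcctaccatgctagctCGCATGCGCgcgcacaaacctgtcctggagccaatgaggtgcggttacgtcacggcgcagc
Cox5a: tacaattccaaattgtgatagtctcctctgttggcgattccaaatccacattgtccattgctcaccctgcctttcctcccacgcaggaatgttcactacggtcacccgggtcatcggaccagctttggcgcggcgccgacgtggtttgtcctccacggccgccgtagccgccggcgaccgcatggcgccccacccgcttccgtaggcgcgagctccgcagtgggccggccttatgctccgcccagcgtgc
Sdhd: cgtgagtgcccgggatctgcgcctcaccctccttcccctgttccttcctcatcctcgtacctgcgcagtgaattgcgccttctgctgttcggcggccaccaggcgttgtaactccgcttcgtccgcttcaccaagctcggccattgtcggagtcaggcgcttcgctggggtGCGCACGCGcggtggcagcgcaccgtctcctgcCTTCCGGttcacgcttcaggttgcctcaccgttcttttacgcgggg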

How the data were processed

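For 45141 probe sets on each of 12 arrays the authors deposited linear intensity values, and the submitters' processing notes name MAS5. Its version, scaling target and any filter are not stated in the sources used here, and no column of another sample was present. Gene names came from the platform annotation: apart from 104 control probe sets, 28898 probe sets had 1 gene, 551 several and 15588 none, and those with several or none were left out. Each gene was its brightest probe set by mean deposited intensity, tested where it exceeded the array's median on at least 4 arrays, which gave 11217 genes. Intensities without controls were quantile-scaled and taken to log2(value + 12.7), 12.7 being the 25th percentile of all deposited values, so a log2 change understates changes of dim genes.

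Tests used limma 3.58.1 in R 4.3.3 with 1 linear model of 3 groups over all 12 arrays, moderated variances with a trend, and Benjamini-Hochberg adjustment over all genes. A gene was called at an adjusted p under 0.05. The 5 scalings were quantile, none, median, cyclic loess and calibration, a quadratic curve per array through the 18 hybridization controls. For calibration, values outside the range of the controls on an array were first set to the end of that range. Other alternatives concerned the filter, the pseudocount, the variance model, the replicate number as a block, the choice of probe set and leaving out each array. The numbers shared by the lines are not said to mark a day or culture, and deviations of same-numbered arrays correlated at -0.091 to 0.099, so they were not treated as pairs. The number of arrays limits the precision, and a member's log2 values in 1 line had a median SD of 0.025.

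The members and lists were chosen with earlier results of these data known. Values on every array are given for the member with the largest change of its complex in each line, those called in opposite directions in the lines, those called with a change of 1.5-fold or more and the isoform pairs Cox6a1 with Cox6a2 and Cox7a1 with Cox7a2. Of each list the largest called rise and fall in each line are named. In a test on simulated data of 11217 genes with 50 changed at each size, the TB14 comparison recovered 22% of 1.1-fold, 72% of 1.2-fold and 96% of 1.5-fold changes and called 12 unchanged genes. The simulated noise was independent and of the size seen between arrays of a line. It held no difference from line to line and no shift between arrays, so it gives no error rate for the real comparisons. Figures were drawn with matplotlib 3.10.9.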

Additional observations from a re-analysis of the deposited data

Results flagged for a closer look

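In 10 of 126 sets of 4 arrays, 1 array of a member lay apart from the other 3 by more than Dixon's limit at 95%, and chance alone gives about 1 in 20. The quantile-scaled intensities were 755 for Ndufa8 on TB13 replicate 1, against 777 to 779.9 on the other arrays of its line, 788 for Ndufs3 on Trib1 replicate 3, against 776 to 776 on the other arrays of its line, 197 for Sdhd on Trib1 replicate 4, against 222 to 226 on the other arrays of its line, 1424 for Uqcrc1 on TB13 replicate 4, against 1377 to 1384 on the other arrays of its line, 732 for Uqcrb on Trib1 replicate 3, against 756 to 759.5 on the other arrays of its line. The others were 642 for Uqcrb on TB13 replicate 3, against 596 to 602 on the other arrays of its line, 945 for Cyc1 on TB13 replicate 3, against 1006 to 1019 on the other arrays of its line, 4414 for Cox6a1 on Trib1 replicate 2, against 4477 to 4477 on the other arrays of its line, 1500.0 for Atp5o on Trib1 replicate 3, against 1529 to 1533 on the other arrays of its line, and 1834 for Atp5j on TB14 replicate 4, against 1813 to 1815 on the other arrays of its line.

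The change in TB14 differed from that in TB13 for 36 of 41 members (limma, Benjamini-Hochberg adjusted p under 0.05 for TB14 minus TB13 after quantile scaling), where 80.1% of all genes did. The log2 difference was positive for 25, at 0.64 for Ndufa5, 0.56 for Sdhc, 0.55 for Uqcrb, 0.52 for Ndufs8, 0.43 for Atp5j, 0.42 for Cycs, 0.36 for Ndufb3, 0.36 for Ndufa4, 0.33 for Atp5o, 0.33 for Cox7a2, 0.28 for Ndufb10, 0.26 for Uqcrfs1, 0.26 for Cox6a1, 0.25 for Ndufb5, 0.25 for Ndufa1, 0.23 for Ndufa2, 0.19 for Ndufa8, 0.19 for Cox6c and 0.17 for Ndufs3, which kept sign and call under all 5 scalings, and 0.20 for Ndufs1, 0.15 for Ndufv2, 0.12 for Sdha, 0.11 for Atp5b, 0.073 for Cyc1 and 0.064 for Ndufa9, which did not keep both. It was negative for 11, at -2.41 for Cox6a2, which kept sign and call under all 5 scalings, and -0.998 for Sdhd, -0.32 for Uqcrq, -0.22 for Cox5b, -0.21 for Cox8a, -0.19 for Cox7c, -0.14 for Cox5a, -0.11 for Uqcrc2, -0.098 for Ndufb9, -0.061 for Uqcrc1 and -0.058 for Cox4i1, which did not keep both.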

How the results depend on the processing

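With another filter, pseudocount or variance model the counts of members called stayed within 1.5 times and the medians within the spread between arrays for all 4 comparisons. The replicate block changed no member's call or sign and left 22 members higher and 5 lower in TB14, with 4819 of all genes called. Of 3069 values of single members under the alternatives 2836 kept sign and call, 107 turned sign, 68 lost and 58 gained a call. The cause of these changes was not tested. Over all genes the median log2 change in TB13 against Trib1 was itself -0.39 as deposited and -0.63 with median scaling. With values as deposited, for TB13 against Trib1 3 members were called higher, 35 were called lower and the median of members was -0.35, for TB14 against Trib1 3 were called lower, for both Bcl11a lines against Trib1 5 members were called higher, 28 were called lower and the median of members was -0.13 (other sign), for TB14 against TB13 5 were called lower and the median of members was 0.48. With values as deposited, the log2 change for TB13 against Trib1 turned sign to -0.39 for Ndufa10, -0.23 for Ndufb5, -0.17 for Ndufb8, -0.28 for Ndufb9, -0.70 for Ndufs1, -0.49 for Ndufs7, -0.39 for Ndufv1, -0.32 for Sdha, -0.045 for Sdhb, -0.11 for Uqcrc1, -0.16 for Uqcrc2, -0.23 for Cyc1, -0.18 for Cycs, -0.43 for Cox6a2, -0.11 for Cox7c and -0.027 for Atp5b. With values as deposited, the log2 change for TB14 against Trib1 turned sign to 0.0019 for Ndufa2 and 0.0017 for Ndufs8. With values as deposited, the log2 change for TB14 against TB13 turned sign to 0.31 for Ndufb9, 0.54 for Ndufs7, 0.49 for Ndufv1, 0.34 for Sdhb, 0.25 for Uqcrc1, 0.15 for Uqcrc2, 0.057 for Cox4i1 and 0.20 for Cox7c. With median scaling, for TB13 against Trib1 0 members were called higher, 40 were called lower and the median of members was -0.61, for TB14 against Trib1 2 were called lower and the median of members was 0.10, for both Bcl11a lines against Trib1 1 members were called higher, 37 were called lower and the median of members was -0.25 (other sign), for TB14 against TB13 39 members were called higher, 1 were called lower and the median of members was 0.77. With median scaling, the log2 change for TB13 against Trib1 turned sign to -0.65 for Ndufa10, -0.49 for Ndufb5, -0.44 for Ndufb8, -0.55 for Ndufb9, -0.96 for Ndufs1, -0.75 for Ndufs7, -0.66 for Ndufv1, -0.58 for Sdha, -0.31 for Sdhb, -0.38 for Uqcrc1, -0.43 for Uqcrc2, -0.23 for Uqcrq, -0.49 for Cyc1, -0.45 for Cycs, -0.19 for Cox5b, -0.69 for Cox6a2, -0.38 for Cox7c, -0.19 for Cox8a and -0.29 for Atp5b. With median scaling, the log2 change for TB14 against Trib1 turned sign to 0.026 for Ndufa2, 0.026 for Ndufs8, 0.011 for Uqcrc2 and 0.0037 for Cox6c. With median scaling, the log2 change for TB14 against TB13 turned sign to 0.59 for Ndufb9, 0.83 for Ndufs7, 0.78 for Ndufv1, 0.63 for Sdhb, 0.022 for Sdhd, 0.54 for Uqcrc1, 0.44 for Uqcrc2, 0.20 for Uqcrq, 0.35 for Cox4i1, 0.24 for Cox5a, 0.17 for Cox5b, 0.49 for Cox7c and 0.29 for Cox8a. With cyclic loess scaling, for TB13 against Trib1 the median of members was 0.059 (other sign), for TB14 against Trib1 the median of members was 0.054, for both Bcl11a lines against Trib1 the median of members was 0.057, for TB14 against TB13 the median of members was 0.030. With cyclic loess scaling, the log2 change for TB13 against Trib1 turned sign to 0.059 for Ndufa9, -0.0073 for Ndufs1, 0.048 for Ndufv2 and 0.079 for Cox4i1. With cyclic loess scaling, the log2 change for TB14 against Trib1 turned sign to -0.012 for Ndufb9, -0.019 for Ndufb10, -0.020 for Sdhd and -0.0044 for Uqcrfs1. With cyclic loess scaling, the log2 change for TB14 against TB13 turned sign to -0.052 for Ndufa9, -0.10 for Ndufa10, -0.14 for Ndufb8, -0.011 for Sdha and -0.054 for Cyc1. With calibration on the hybridization controls, for TB13 against Trib1 the median of members was 0.012 (other sign), for TB14 against Trib1 2 were called lower and the median of members was 0.12, for both Bcl11a lines against Trib1 26 members were called higher and the median of members was 0.098, for TB14 against TB13 the median of members was 0.11. With calibration on the hybridization controls, the log2 change for TB13 against Trib1 turned sign to 0.11 for Ndufa9, 0.0086 for Ndufs3, 0.012 for Ndufv2 and -0.016 for Atp5b. With calibration on the hybridization controls, the log2 change for TB14 against Trib1 turned sign to 0.037 for Ndufa2, 0.037 for Ndufs8, 0.020 for Uqcrc2 and 0.0046 for Cox6c. With calibration on the hybridization controls, the log2 change for TB14 against TB13 turned sign to -0.024 for Ndufa9, -0.058 for Ndufa10, -0.060 for Ndufb8, -0.0040 for Cyc1 and 0.014 for Cox4i1. With the mean of all probe sets of a gene, for TB14 against TB13 the median of members was 0.10. With the mean of all probe sets of a gene, the log2 change for TB13 against Trib1 turned sign to -0.097 for Ndufa10, -0.13 for Ndufb8 and 0.026 for Ndufv2. With the mean of all probe sets of a gene, the log2 change for TB14 against Trib1 turned sign to 0.037 for Uqcrq. With the mean of all probe sets of a gene, the log2 change for TB14 against TB13 turned sign to -0.027 for Ndufs8. With x and s probe sets left out, for TB14 against Trib1 the median of members was 0.098. With x and s probe sets left out, the log2 change for TB13 against Trib1 turned sign to -0.040 for Cox5b. With x and s probe sets left out, the log2 change for TB14 against Trib1 turned sign to 0.14 for Uqcrq. With each line mean as 1 sample, for both Bcl11a lines against Trib1 0 members were called higher, 0 were called lower and 115 of all genes were called. Leaving out 1 array at a time gave -0.036 to -0.0079 for the median of members in TB13 against Trib1 (reported as -0.020, differing without TB13 replicate 1), -0.036 to 0.0026 for Ndufa9 in TB13 against Trib1 (reported as -0.020, differing without TB13 replicate 2), -0.0079 to 0.035 for Ndufa10 in TB13 against Trib1 (reported as 0.0079, differing without TB13 replicate 2 and TB13 replicate 4), -0.018 to 0.0018 for Ndufa2 in TB14 against Trib1 (reported as -0.0096, differing without Trib1 replicate 2), -0.030 to 0.0018 for Ndufs8 in TB14 against Trib1 (reported as -0.012, differing without Trib1 replicate 4), -0.024 to 0.038 for Sdhd in TB14 against Trib1 (reported as 0.019, differing without Trib1 replicate 4), 0.011 to 0.031 for the median of members in both Bcl11a lines against Trib1 (reported as 0.014, differing without TB13 replicate 2), -0.013 to 0.017 for Ndufb8 in TB14 against TB13 (reported as 0.0023, differing without TB13 replicate 1, TB14 replicate 2 and TB14 replicate 4), -0.051 to 0.030 for Ndufv1 in TB14 against TB13 (reported as -0.0047, differing without TB13 replicate 1 and TB13 replicate 3), -0.015 to 0.029 for Ndufa10 in TB14 against TB13 (reported as 0.013, differing without TB13 replicate 3) and 0.14 to 0.16 for the median of members in TB14 against TB13 (reported as 0.15, differing without TB13 replicate 4). Directions in TB13 are limited by the scaling, and dim probe sets such as that of Cox7a1 by the background.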
